A study of Mus musculus with 6 samples.

Results

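Interferon and double-stranded RNA response genes are the genes through which a cell detects foreign RNA and answers interferon. A list of 42 such genes was taken, comprising RNA sensors, signalling proteins, receptors, transcription factors and target genes. Of these, 41 had a probe set with 1 gene symbol on the array, out of 18193 genes in all. The remaining one, Isg15, had a probe set annotated to 2 genes and was not read. Where a gene had several probe sets, the one brightest on average across the 6 arrays was taken.

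RNA abundance was measured with Affymetrix Mouse Genome 430 2.0 arrays, on which sets of short oligonucleotide probes report transcripts. The cells were of R1, a mouse embryonic stem cell line. They were infected with lentivirus and sorted for GFP. In 3 samples the virus expressed the first short hairpin RNA (shRNA) against KIAA1718, the histone demethylase encoded by Kdm7a, and in 3 samples it expressed an shRNA against luciferase, which mouse cells do not encode. Both groups thus carried a lentivirus and a hairpin RNA, there were no uninfected cells among the samples, and each group carried a single hairpin sequence. The targeted gene, Kdm7a, had signals of 40.9, 23.8 and 34.9 with its shRNA and 33.3, 31.2 and 44.9 with the luciferase shRNA. These overlapped, and the difference of -0.20 ± 0.15 (log2, SE, 95% interval -0.54 to 0.14, adjusted p = 0.534) did not pass. A signal at 50% of that in luciferase shRNA cells would give -0.62 on this scale, which lies outside the interval. The gene's 2 further tested probe sets gave -0.22 and -0.16 and did not pass either (adjusted p = 0.458 and 0.585). For the first of these, a signal at 50% would give -0.36, which lies inside its interval of -0.53 to 0.10. For the second it would give -0.59, outside the interval of -0.45 to 0.14. The arrays thus did not show the labelled knockdown. An effect of the hairpin sequence on other RNAs cannot be told apart from one of its target.

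Double-stranded RNA is detected in the cytoplasm by the helicases encoded by Ifih1 (MDA5) and Ddx58 (RIG-I), which signal through Mavs and Tbk1 to the interferon regulatory factors and so to interferon genes. Secreted interferon binds its receptors, and the kinases attached to them activate STAT and IRF proteins. These switch on target genes through short promoter elements, the interferon-stimulated response element and the gamma-activated site. Pluripotent stem cells are known for a weak interferon system, with little induction of interferon by viral RNA and low levels of many of its components.

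Of the 41 genes, 34 had enough signal to be tested. In cells with the KIAA1718 shRNA1, 8 of them rose against cells with the luciferase shRNA and none fell. A gene was called at a Benjamini-Hochberg adjusted p under 0.05 in limma, over all tested probe sets. By the same rule 4.8% of the 12741 tested genes were called, 2.64% of them higher and 2.17% lower. At an unadjusted p under 0.05, 12 members were higher and 1 was lower, against 11.2% of all tested genes higher and 10.8% lower. The 8 were Irf1, Parp9, Ifi35, Cxcl10, Ifitm1, Bst2, Oasl2 and Ifitm3. The list was chosen with earlier results of these data known. Of the 34, 6 reached the signal required for testing through the KIAA1718 shRNA1 arrays alone, Cxcl10, Oasl2, Tlr3, Dhx58, Irf7 and Socs1, all with differences above 0. Of the 28 that reached it on the luciferase shRNA arrays alone, 6 were called. The shares of members given here thus do not test the list. Of 10 tested target genes 6 rose, as did 1 of 6 transcription factors and 1 of 8 RNA sensors and double-stranded RNA enzymes, but none of 3 sensor signalling proteins, 6 receptors and kinases and 1 feedback inhibitor. The median difference was 0.58 (log2) for the target genes, 0.08 for the sensors and enzymes, -0.07 for sensor signalling, 0.06 for receptors and kinases and 0.02 for transcription factors, against 8.14e-05 for all genes. These medians cover tested members only, on a scale that understates changes of dim genes. Of the 15 target genes on the array, 5 had too little signal, and with no filter on low values these differed by -0.21 to 0.41. The median of all 34 was 0.10, and 23 of them lay above 0, as did 50% of all genes. The groups did not overlap for 14 of the 34, in 12 of them with the KIAA1718 shRNA1 arrays higher. Over all genes these shares were 27.9% and 14.4%. A fold change in bulk RNA does not separate a change in every cell from a change in the share of cells that express a gene.

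**Figure D1:**
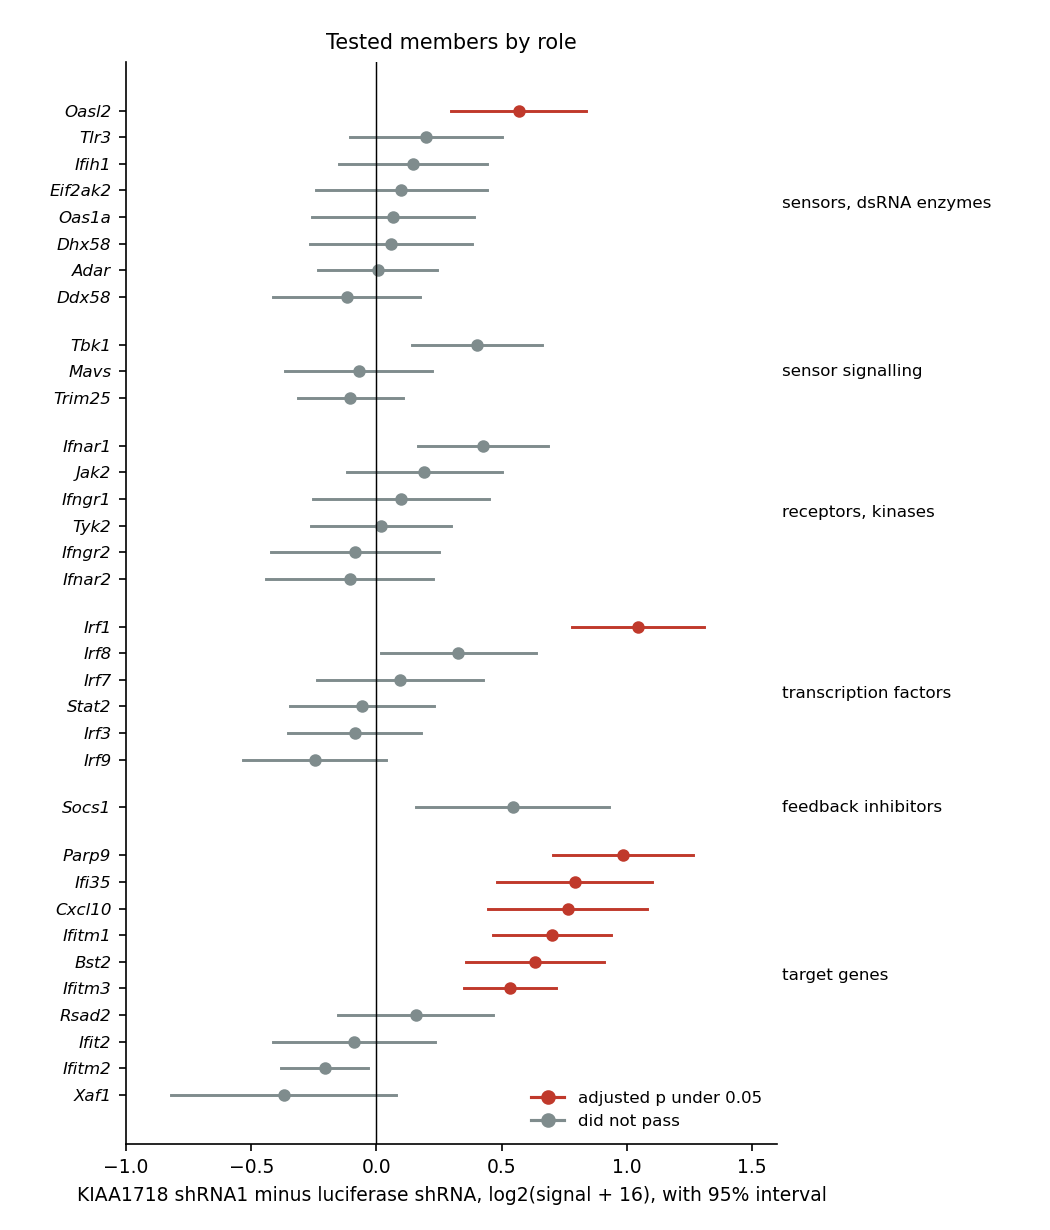
Log2 difference, KIAA1718 shRNA1 minus luciferase shRNA, of the 34 tested members on the log2(signal + 16) scale, ordered by role; points are fitted differences, bars are 95% intervals and red marks an adjusted p under 0.05. The 6 red target genes lie between 0.53 and 0.99, and the sensors other than Oasl2 lie between -0.12 and 0.20.

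Irf1, the transcription factor gene known to be induced by interferon gamma, gave the largest log2 difference of the 34 tested members with a pseudocount of 16. With a pseudocount of 1, which weighs dim genes more, Cxcl10 (1.73), Socs1 (1.63, not called) and Oasl2 (1.37) lay above it, and Parp9 equalled it at 1.13. Its signal was 236, 317 and 330.3 on the KIAA1718 shRNA1 arrays, against 116, 112 and 133 on the luciferase shRNA arrays. The groups stood well apart, with means of 294 ± 51.1 and 120.1 ± 10.9 (SD, n = 3 each). The log2 difference was 1.05 ± 0.12 (SE, adjusted p = 0.00121). It was called in all 15 processing alternatives, between 0.84 and 1.18.

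Parp9 encodes an ADP-ribosyltransferase family protein that acts together with the ubiquitin ligase Dtx3l in the interferon response. Its signal was 128, 165 and 190.0 in KIAA1718 shRNA1 cells and 64.9, 53.1 and 79.7 in luciferase shRNA cells. Every KIAA1718 shRNA1 value exceeded every luciferase value, and the log2 difference was 0.99 ± 0.13 (SE, adjusted p = 0.00208). Dtx3l, whose gene lies next to Parp9 with no protein-coding gene between them, had 117, 144 and 169 in KIAA1718 shRNA1 cells, against 91.0, 82.8 and 84.0 in luciferase shRNA cells. Its groups did not overlap either, but the difference of 0.51 ± 0.14 did not pass (adjusted p = 0.0718). With the mean of its probe sets it was 0.53 and passed (adjusted p = 0.0165), the only call in 15 alternatives.

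Ifi35 encodes an interferon-induced protein that binds Nmi. Its signal was 141, 221 and 189.9 with the KIAA1718 shRNA1 and 85.4, 82.7 and 98.0 with the luciferase shRNA, a log2 difference of 0.79 ± 0.14 (SE, adjusted p = 0.0124). This probe set carries the suffix that Affymetrix gives to probes shared by several transcripts. The gene's 2 further probe sets, one of them without a suffix for shared probes, rose as well, by 0.57 (adjusted p = 0.0450) and 0.86 (adjusted p = 0.0389). Without luciferase shRNA replicate 3 the brightest probe set was not called.

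The Ifitm genes encode small membrane proteins that hinder the entry of viruses and are also expressed in pluripotent and early germ cells of the mouse. Ifitm1 had signals of 844, 829 and 762 in KIAA1718 shRNA1 cells, against 487, 384 and 477 in luciferase shRNA cells. Ifitm3 had 1210.1, 1237 and 1150.1 in KIAA1718 shRNA1 cells, against 792, 679 and 813 in luciferase shRNA cells. Both pairs of groups were clear of each other, and the log2 differences were 0.70 ± 0.11 (SE, adjusted p = 0.00573) for Ifitm1 and 0.53 ± 0.08 (SE, adjusted p = 0.00657) for Ifitm3. Ifitm2, the immediate neighbour of Ifitm1 on chromosome 7, lay on the other side of 0. Its signal was 810.1, 835 and 827 with the KIAA1718 shRNA1 and 858, 842 and 951 with the luciferase shRNA, and its difference of -0.21 ± 0.08 did not pass (adjusted p = 0.181). The difference between Ifitm2 and its neighbours was not tested, nor was whether probes of such similar transcripts share targets.

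Bst2 encodes tetherin, which holds budding virus particles at the cell surface. Its signal was 75.3, 97.9 and 101 in KIAA1718 shRNA1 cells and 48.7, 39.8 and 56.4 in luciferase shRNA cells, with no overlap, and the log2 difference was 0.63 ± 0.13 (SE, adjusted p = 0.0200). Cxcl10, a chemokine gene that attracts activated T cells, had 22.4, 24.3 and 23.2 in KIAA1718 shRNA1 cells, against 6.92, 2.26 and 10.2 in luciferase shRNA cells. The KIAA1718 shRNA1 arrays lay close together and the luciferase arrays were spread, and the difference was 0.76 ± 0.15 (SE, adjusted p = 0.0164). Cxcl10 and Oasl2 reached the signal required for testing through the KIAA1718 shRNA1 arrays alone, as did Tlr3, Dhx58, Irf7 and Socs1, which were not called. The presence of these genes among those tested was thus itself tied to a difference. Of the 8 genes, Irf1, Parp9, Ifitm1 and Ifitm3 were called in all 15 alternatives. Ifi35 was called in 13 of 15, Bst2 in 10 of 15, Cxcl10 in 10 of 14 and Oasl2 in 8 of 14, and all 8 differences lay above 0 throughout. Without KIAA1718 shRNA1 replicate 2, KIAA1718 shRNA1 replicate 3 or luciferase shRNA replicate 2, Bst2, Cxcl10 and Oasl2 were not called. Without luciferase shRNA replicate 3, Bst2, Ifi35 and Oasl2 were not called, and 5 members remained past the threshold in each of these 4 cases. Oasl2 was also not called without KIAA1718 shRNA1 replicate 1.

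**Figure D2:**
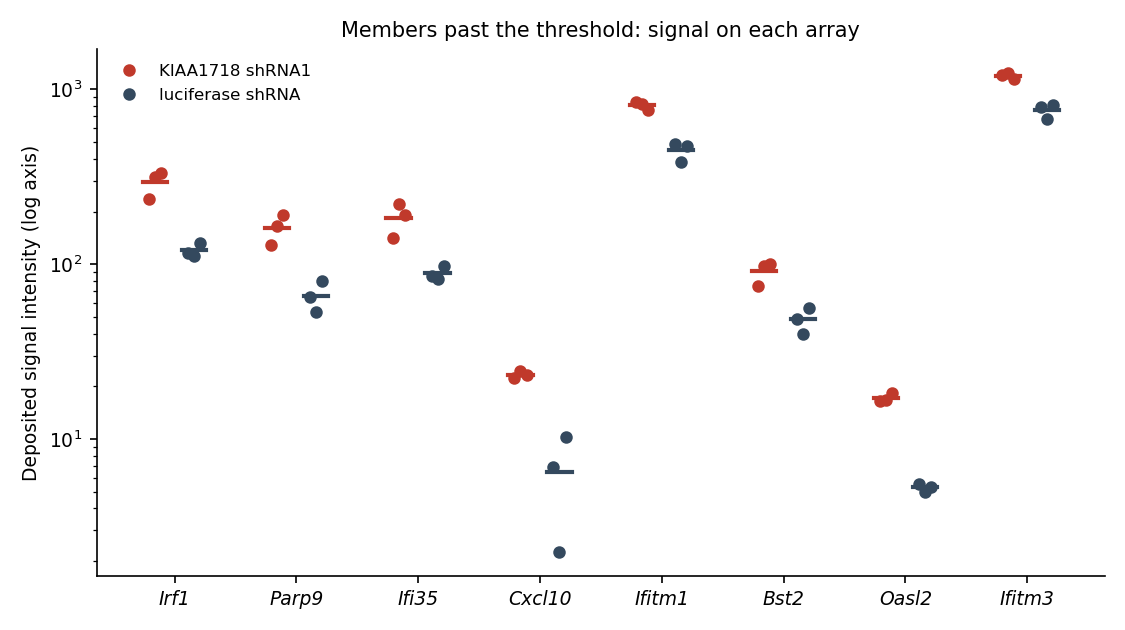
Deposited signal intensity (log axis, arbitrary units) of the 8 members past the threshold on each array; points are arrays and bars are group means, with KIAA1718 shRNA1 in red to the left of luciferase shRNA in dark blue. The groups do not overlap for any of the 8, with Irf1 between 236 and 330.3 in KIAA1718 shRNA1 cells, against 112 to 133 in luciferase shRNA cells.

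The promoters of these genes were searched for both interferon elements, in the 250 bases before and 50 bases after the start in RefSeq (build GRCm38.p6), on both strands. The letters searched were GAAA followed after any 2 bases by GAAA, the core of the interferon-stimulated response element, and TTCNNNGAA, the core of the gamma-activated site, which reads the same on both strands. Of 36 members with a promoter in the table, 14 (38.9%) held the first and 13 (36.1%) the second, against 3.99% and 9.55% of 27025 genes. Among the 8 genes that rose, 7 had a promoter, and 3 of these held the first element and 4 the second. Among the tested members that did not pass, 8 and 7 of 25 held them. Of the genes that rose, Ifi35 and Ifitm3 had their matches after the start. Parp9, Ifitm1 and Oasl2, which also rose, had no match or no promoter in the table. A match describes the letters and does not show a site in use. The stretches upstream of the start are given here for Irf1, Cxcl10 and Bst2, which rose, for Oas1a, which holds matches but did not pass, and for Ifit1, which had too little signal to be tested, with the matches in capitals. Where matches overlap, as in Bst2 and Oas1a, they form 1 run of capitals. The Ifit1 elements lie on the opposite strand, and the gene's own strand, printed here, reads them as TTTC, any 2 bases and TTTC. Each stretch begins 30 bases before its first match.
Irf1, chr11:53769894-53769962, plus strand: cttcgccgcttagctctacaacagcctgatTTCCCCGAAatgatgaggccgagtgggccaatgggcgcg
Cxcl10, chr5:92349063-92349132, minus strand: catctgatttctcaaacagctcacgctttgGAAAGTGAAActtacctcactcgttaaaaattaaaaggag
Bst2, chr8:71537557-71537638, minus strand: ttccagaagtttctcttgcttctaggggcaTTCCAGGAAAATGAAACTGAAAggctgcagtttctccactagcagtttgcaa
Ifit1, chr19:34640755-34640843, plus strand: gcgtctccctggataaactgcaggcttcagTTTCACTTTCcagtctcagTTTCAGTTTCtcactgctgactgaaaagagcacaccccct
Oas1a, chr5:120907526-120907653, minus strand: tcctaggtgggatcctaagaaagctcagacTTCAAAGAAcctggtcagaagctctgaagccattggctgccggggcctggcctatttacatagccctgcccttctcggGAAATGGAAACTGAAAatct
The Irf1 stretch holds 1 gamma-activated element and no response element, and the Cxcl10 stretch the reverse. Bst2 holds 1 gamma-activated element and 2 overlapping response elements, as does Oas1a, whose RNA did not pass.

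On the normalized log2 scale, which understates changes of dim genes, the sensors themselves showed small differences. Oasl2, which encodes a protein like the oligoadenylate synthetases, was the exception among the 8 RNA sensors and double-stranded RNA enzymes. Its signal was 16.6, 16.6 and 18.3 in KIAA1718 shRNA1 cells and 5.54, 4.98 and 5.33 in luciferase shRNA cells, a log2 difference of 0.57 ± 0.12 (SE, adjusted p = 0.0296). Its size was tied to the pseudocount, at 1.37 with a pseudocount of 1 and 0.20 with one of 64, where it was still called. The dim sensors Tlr3, Ifih1 and Dhx58 differed by 0.59, 0.38 and 0.10 with a pseudocount of 1, and none of these was called.

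Ifih1 had signals of 10.2, 9.33 and 14.8 with the KIAA1718 shRNA1 and 8.74, 7.19 and 6.39 with the luciferase shRNA. The deposited values did not overlap, but the values normalized between arrays did, and the difference was 0.15 ± 0.14 (SE, adjusted p = 0.615). Ddx58 had 97.2, 76.1 and 88.1 in KIAA1718 shRNA1 cells, against 90.7, 72.4 and 101 in luciferase shRNA cells, with overlapping groups and a difference of -0.12 ± 0.13 (SE, adjusted p = 0.697). Dhx58 encodes LGP2, a regulator of the other RNA helicases. With signals of 9.56, 9.17 and 3.50 in KIAA1718 shRNA1 cells, against 6.45, 4.26 and 6.36 in luciferase shRNA cells, it showed no separation of the groups (difference 0.06, adjusted p = 0.876). Tlr3, the endosomal receptor for double-stranded RNA, had 6.14, 8.50 and 13.1 in KIAA1718 shRNA1 cells, against 6.52, 3.01 and 5.71 in luciferase shRNA cells. These groups overlapped too, with a difference of 0.20 ± 0.14 (SE, adjusted p = 0.492). The means of the deposited signals were 9.25 and 5.08. A second probe set of Tlr3, with too little signal to be tested, had means of 8.99 and 3.37. It differed by 0.32 with no filter on low values (limma, adjusted p = 0.270).

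Eif2ak2 encodes PKR, a kinase that halts translation on binding double-stranded RNA. Its signal was 33.9, 33.5 and 49.5 in KIAA1718 shRNA1 cells and 21.2, 28.2 and 48.8 in luciferase shRNA cells, where replicate 3 was high in both groups (difference 0.10, adjusted p = 0.787). Oas1a, an oligoadenylate synthetase gene, had 40.03, 51.2 and 45.2 in KIAA1718 shRNA1 cells, against 45.9, 30.03 and 41.0 in luciferase shRNA cells (difference 0.07, adjusted p = 0.855). Adar, the RNA editing enzyme that acts on the cell's own double-stranded RNA, had 140.6, 144 and 179.7 with the KIAA1718 shRNA1 and 134, 119.5 and 166 with the luciferase shRNA. Its groups overlapped, and its difference of 0.00467 had an interval of -0.23 to 0.24. On this scale a signal 2 times that of the luciferase cells would give 0.88 for Ddx58, 0.74 for Eif2ak2, 0.77 for Oas1a and 0.92 for Adar. These lie above the 95% intervals, which end at 0.18, 0.44, 0.39 and 0.24. The signals of Ifih1, Tlr3 and Dhx58 were near the array medians of 9.58 to 13.3 or under them. For these genes the same increase would lie inside the interval, and the values do not exclude it.

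**Figure D3:**
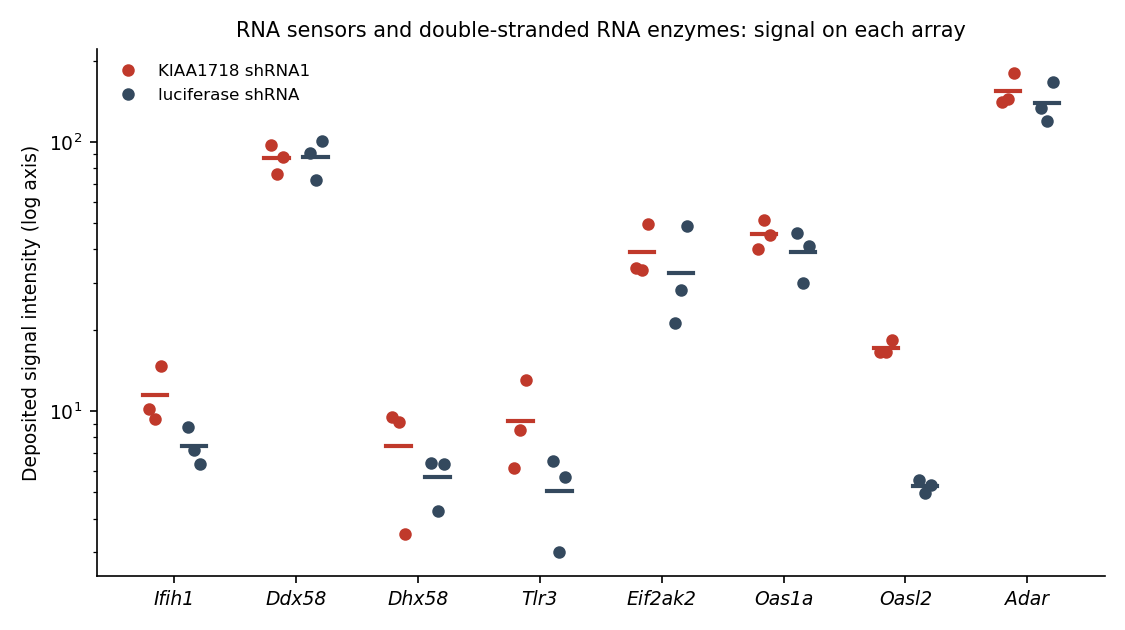
Deposited signal intensity (log axis, arbitrary units) of the 8 RNA sensors and double-stranded RNA enzymes on each array, with KIAA1718 shRNA1 in red to the left of luciferase shRNA in dark blue; points are arrays and bars are group means. Oasl2 alone passed the threshold, at 16.6 to 18.3 in KIAA1718 shRNA1 cells, against 4.98 to 5.54 in luciferase shRNA cells, whereas the values of Ddx58, Eif2ak2, Oas1a and Adar are interleaved.

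Downstream of the sensors, Trim25, the ubiquitin ligase that activates RIG-I, had 525, 470.4 and 515 in KIAA1718 shRNA1 cells and 478, 459 and 539.5 in luciferase shRNA cells. The groups overlapped, and the difference was -0.10 ± 0.10 (SE, adjusted p = 0.615). The adaptor gene Mavs differed by -0.07 (adjusted p = 0.828). Tbk1, the kinase that phosphorylates IRF3, had 355, 402 and 323 in KIAA1718 shRNA1 cells, against 240.5, 201 and 288 in luciferase shRNA cells. These groups did not overlap, but the difference of 0.40 ± 0.12 did not pass (SE, adjusted p = 0.0878). A further tested probe set of Tbk1, without a suffix for shared probes, gave 0.01 (adjusted p = 0.965). The brightest probe sets of Trim25, Mavs and Tbk1 all carry such a suffix.

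Among the receptors, Ifnar1, a chain of the receptor for type I interferon, had 102, 116 and 121 in KIAA1718 shRNA1 cells and 60.7, 68.1 and 91.6 in luciferase shRNA cells. The groups were separate, and the difference of 0.43 ± 0.12 fell short of the threshold (SE, adjusted p = 0.0733). Its range over the alternatives was 0.22 to 0.54, with no call, and its dimmer probe set gave 0.02 (adjusted p = 0.959). Ifnar2, Ifngr1 and Ifngr2, the other chains of the type I and interferon gamma receptors, differed by -0.11, 0.10 and -0.09, and the receptor kinase genes Jak2 and Tyk2 by 0.19 and 0.02, all with overlapping groups and adjusted p of 0.516 or higher. A signal 2 times that of the luciferase cells would lie above the interval for all 6 receptor and kinase genes.

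The transcription factor genes other than Irf1 did not pass. Irf8, known from blood cells, had 18.8, 12.8 and 14.0 with the KIAA1718 shRNA1 and 5.62, 8.31 and 9.05 with the luciferase shRNA, without overlap (difference 0.33 ± 0.14, SE, adjusted p = 0.239). Stat2 and Irf9, whose proteins join in the complex that binds response elements, differed by -0.06 and -0.25. Irf3 and Irf7, which induce the interferon genes, differed by -0.09 and 0.09 (adjusted p of 0.345 or higher for each of these genes). A signal 2 times that of the luciferase cells would lie above the interval for Stat2, Irf9 and Irf3. For the dim genes Irf7 and Irf8 it would give 0.34 and 0.40, inside intervals that end at 0.42 and 0.64. Irf2 had too little signal to be tested. Of the feedback inhibitors, Socs1, which blocks the receptor kinases, had 12.9, 20.5 and 15.5 in KIAA1718 shRNA1 cells, against 9.28, 0.595 and 6.78 in luciferase shRNA cells. The groups were apart and the luciferase arrays spread widely, and the difference of 0.54 ± 0.18 did not pass (SE, adjusted p = 0.119). For Socs1 a signal 2 times that of the luciferase cells would give 0.33, inside its interval of 0.16 to 0.93.

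Target genes did not move as one. Rsad2, which encodes the antiviral enzyme viperin, differed by 0.16, Ifit2, an RNA-binding antiviral protein, by -0.09, and Xaf1, a gene of interferon-induced apoptosis, by -0.37 (adjusted p of 0.365 or higher). Besides Irf2, 6 members had too little signal for the test: Usp18, Ifit1, Ifit3, Isg20, Mx1 and Mx2. The signals of these 7 ran from 0.401 to 11.5. With no filter on low values none of the 7 passed in limma, and 3 had an unadjusted p under 0.05. Ifit1, whose protein binds RNA lacking a self cap, had 7.99, 7.30 and 6.73 in KIAA1718 shRNA1 cells, against 1.14, 0.664 and 2.09 in luciferase shRNA cells. Its groups did not overlap, and its difference of 0.41 ± 0.08 had an adjusted p of 0.0686 in that fit. Isg20, an exonuclease gene, differed by 0.37 (adjusted p = 0.211) and Usp18, which removes ISG15 from proteins, by -0.31 (adjusted p = 0.284). Mx1, Mx2 and Ifit3 had overlapping groups.

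The 41 members had 70 probe sets in all. Of 20 further probe sets with enough signal, 15 lay on the same side of 0 as the brightest one of their gene. Only 2 of the 20 were past the threshold, both of Ifi35.

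A further list of 70 interferon pathway genes outside the members had 62 that could be read on the array, 46 of them with enough signal. Of these 5 rose, 1 fell and 40 did not pass, which is 13% called. Over all tested genes 4.8% were called, with 2.64% higher and 2.17% lower. This list too was chosen with earlier results of these data known. The median difference of the 46 genes was 0.11. Nmi, the partner of Ifi35, had 48.2, 59.4 and 62.2 in KIAA1718 shRNA1 cells, against 23.0, 16.7 and 17.7 in luciferase shRNA cells, with a difference of 0.94 ± 0.14 (SE, adjusted p = 0.00534). Parp12, a zinc finger protein of the family of Parp9, had 148, 155 and 204 in KIAA1718 shRNA1 cells, against 77.5, 73.0 and 94.7 in luciferase shRNA cells (difference 0.79, adjusted p = 0.00459). Trim21, a cytosolic antibody receptor, had 41.4, 45.9 and 58.2 in KIAA1718 shRNA1 cells, against 19.0, 14.9 and 22.0 in luciferase shRNA cells (difference 0.79, adjusted p = 0.00680). All 3 had separate groups and were called in all 15 alternatives. Zc3hav1, which binds viral RNA rich in CpG, rose by 0.66 (adjusted p = 0.0200) and Rtp4 by 0.94 (adjusted p = 0.0255). Rtp4, like Cxcl10 and Oasl2, reached the signal required for testing through the KIAA1718 shRNA1 arrays alone, whereas the other 4 genes that rose here reached it in both groups. With the mean of each gene's tested probe sets, fitted and adjusted over genes and not probe sets, 7 genes of this list rose. Dtx3l, Prkra and Parp14 were gained and Zc3hav1 was lost. The differences of Prkra (0.46) and Parp14 (0.43) were the same as with the brightest probe set. For these genes only the fit and the adjustment changed, and no further probe set entered. Zc3hav1 was called in 8 of 15 alternatives and Rtp4 in 9 of 14. Neither was called without replicate 2 or replicate 3 of either group, and Zc3hav1 was not called without luciferase shRNA replicate 1.

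The gene that fell was Ccl2, a chemokine gene, with 50.1, 69.5 and 79.4 with the KIAA1718 shRNA1 and 78.7, 88.4 and 127 with the luciferase shRNA. The deposited values overlapped slightly and the normalized ones did not (difference -0.58 ± 0.14, SE, adjusted p = 0.0426), and the call was made in 5 of 15 alternatives. No gene of this list fell on leaving out any 1 KIAA1718 shRNA1 array, luciferase shRNA replicate 2 or luciferase shRNA replicate 3. With the replicate number as a block, 3 genes of this list fell, Cgas at -0.58 (adjusted p = 0.0408) and Socs3 at -0.31 (adjusted p = 0.0359) besides Ccl2. The interferon genes were dim. Ifnb1 had 12.4, 7.18 and 6.53 in KIAA1718 shRNA1 cells, against 9.22, 7.11 and 10.3 in luciferase shRNA cells (difference -0.07, adjusted p = 0.844), and the highest signal of Ifng and Ifna4 on any array was 4.44.

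**Figure D4:**
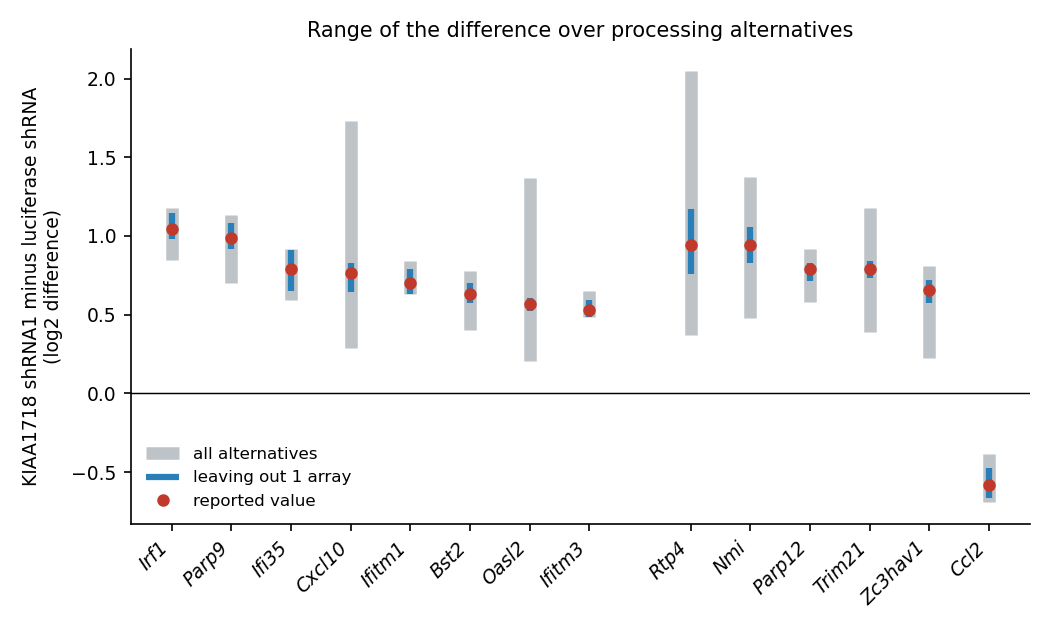
Log2 difference, KIAA1718 shRNA1 minus luciferase shRNA, of the 8 called members on the left and the 6 called genes of the further pathway list on the right; red points are reported values, blue bars the range on leaving out 1 array and grey bars the range over all alternatives. Irf1 stays between 0.84 and 1.18, whereas Cxcl10 runs from 0.29 to 1.73 and Rtp4 from 0.37 to 2.05.

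Markers of the labelled cell type were present: all 9 embryonic stem cell markers had enough signal, with a mean of 9.99 to 10.1 (log2) on KIAA1718 shRNA1 arrays and 10.2 to 10.3 on luciferase shRNA arrays, and 1 of them, Utf1, fell. The mean of 14 fibroblast markers, genes of cells often used as feeders, was 7.74, 8.02 and 8.11 on KIAA1718 shRNA1 arrays and 7.92, 8.69 and 8.65 on luciferase shRNA arrays, and none passed (limma). All 14 lay below 0, from -1.53 to -0.15. Col1a1, a collagen gene, had signals of 104, 50.7 and 193 on KIAA1718 shRNA1 arrays and 126, 399 and 505 on luciferase shRNA arrays, where the groups overlapped. Its difference of -1.53 was larger in size than that of any called member (adjusted p = 0.0714), and the lowest adjusted p of the list was 0.0574, for Thy1 at -0.62. Of 9 macrophage and leukocyte markers 4 had enough signal, and none passed. The mean of these 4 was 5.12 to 5.39 on KIAA1718 shRNA1 arrays and 5.17 to 5.54 on luciferase shRNA arrays, and the other 5, among them Ptprc and Itgam, were below the filter. Of 6 endothelial markers 1 rose, Tek, with a mean over all 6 of 5.04 to 5.07 on KIAA1718 shRNA1 arrays, against 4.70 to 4.84 on luciferase shRNA arrays. All 5 tested endothelial markers lay above 0. Of 6 primitive endoderm markers 3 fell and all 6 lay below 0. Their mean was 5.19 to 5.31 on KIAA1718 shRNA1 arrays, against 5.62 to 5.74 on luciferase shRNA arrays. Below 0 lay also 8 of the 9 stem cell markers and 3 of the 4 tested leukocyte markers. Over all tested genes 2.64% rose and 2.17% fell. The part of these markers in the differences above was not tested.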

How the data were processed

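The authors deposited 1 signal intensity per probe set and array, on a linear scale. They used GCOS, per the submitters' processing notes. How it was set is not given in the sources used here. The table has no detection calls. The arrays did not share a scale (median signal 9.58 to 13.3), so log2(signal + 16) was quantile normalized between arrays. The text quotes deposited signals. Fold changes were computed on the normalized scale and understate changes of dim genes. The 64 control probe sets and the 40% of the others with the lowest mean were left out, which kept 27022. The 2 groups were compared by limma 3.58.1 (R 4.3.3), using lmFit and a trended eBayes in a two-sided test, and p-values were adjusted after Benjamini-Hochberg over all 27022 probe sets. Gene names came from the array's annotation: 34945 probe sets had 1 symbol, 932 several and 9160 are unnamed here. The steps were checked on simulated data, in which changes were placed only in brighter probe sets. The check thus does not cover dim genes such as Cxcl10 and Oasl2. No 2 arrays held the same values.

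The members, roles and lists were chosen with earlier results of these data known. Values on every array are given for members past the threshold, for Ifih1, Ddx58, Eif2ak2, Oas1a and Tlr3, and for the brightest member of each role. Of the further pathway genes, those past the threshold are named. Dhx58, Tbk1, Irf8, Ifitm2, Ifit1, Dtx3l, Prkra, Parp14, Col1a1, Thy1, Cgas, Socs3, Ifnb1, Ifng and Ifna4 were added after their values were seen. The labels do not say whether replicates were separate cultures, and the spread behind the p-values may therefore be technical. Replicate numbers come from the sample titles. After group means were removed, arrays of equal number correlated at 0.203, 0.125 and 0.132 and other pairs at -0.150 to 0.0234, so the numbers were treated as pairs in an alternative fit. Other alternatives changed the normalization, pseudocount, filter, trend and probe set summary, or left out 1 array. Slide and background correction could not be varied from these values.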

Additional observations from a re-analysis of the deposited data

How the results depend on the processing

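In the 15 alternatives the 8 called members stayed above 0 wherever they were tested, and none of the 26 other tested members was called in any. With no filter on low values, where more probe sets enter the adjustment, 4 members were higher (Irf1, Parp9, Ifitm1 and Ifitm3) and 3 further pathway genes. A filter of 60% left out Cxcl10 and Oasl2, and 6 members were higher. With the mean of a gene's probe sets, adjusted over genes and not probe sets, 7 further pathway genes were higher. Leaving out 1 array gave 5 to 8 members higher and none lower, and 3 to 5 further pathway genes higher. Genes of the further list that fell numbered 0 with no normalization, median scaling, a pseudocount of 1, no filter or no intensity trend, 2 with a filter of 60% or the mean of a gene's probe sets, 3 with the replicate block and 0 to 1 without 1 array. The replicate block changed no call of a member: 8 were higher and 0 lower. Over all genes 612 were called, against 1005 with the replicate block, 953 with the mean of probe sets, 359 with no normalization, 394 with no trend, 197 with no filter and 161 to 523 without 1 array.

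With no normalization the median of all genes was 0.11 (log2). The medians were then 0.21 for all members, 0.19 for sensors and enzymes, 0.062 for sensor signalling, 0.17 for receptors and kinases, 0.10 for transcription factors and 0.69 for target genes. A pseudocount of 1 gave 0.20 for all members, 0.12 for sensors and enzymes, 0.080 for transcription factors and 0.63 for target genes. A pseudocount of 64 gave 0.050 for all and 0.34 for target genes. With the 60% filter the medians were 0.043 for all, 0.036 for sensors and enzymes and -0.087 for transcription factors. Without 1 array they ran from 0.055 to 0.16 for all members, 0.056 to 0.15 for sensors and enzymes, -0.085 to 0.038 for sensor signalling, -0.0077 to 0.097 for receptors and kinases, -0.046 to 0.080 for transcription factors and 0.55 to 0.63 for target genes. The cause of these shifts was not tested. The number of arrays limits the precision of all values.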
